A study of Vitis vinifera with 26 samples.

Results

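The 9 grapevine gene identifiers VIT_210s0042g00840 to VIT_210s0042g00930 (VIT_210s0042g00900 excepted) are listed as the stilbene synthase group of chromosome 10. They were followed in berries of the cultivar 'Pinot Noir' (Vitis vinifera). Members were chosen by name: every assembled locus whose reference identifier is one of the 9 was taken, which gave 11 of 33229 loci. Of these, 9 match the reference gene, 1 for each identifier, and 2 lie on the opposite strand of VIT_210s0042g00870 and VIT_210s0042g00930. The names come from this list alone. The files hold identifiers without gene names, and 0 of the 9 matched the RefSeq gene table, so the label could not be checked and no sequence is shown.

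Clusters on 8-year-old field-grown plants were bagged for 24 h at 6, 7 or 8 weeks after anthesis (WAA) with 1-methylcyclopropene (1-MCP) at 5 ppm, a blocker of the ethylene receptors given as a gas, or were given a mock treatment. They were sampled after 24 h. Total RNA of berry tissue was sequenced in 26 libraries, with 3 control and 3 treated clusters at 6 WAA and 5 of each at 7 and at 8 WAA. Each plant gave 1 treated cluster and 1 control. The source names and titles give the groups, while another label calls every cluster treated. The tissue label could not be checked against marker genes, for the same lack of names.

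Stilbene synthases join a phenylpropanoid CoA ester with malonyl-CoA to make resveratrol, the parent of the grapevine stilbenes, which act as defence compounds. They use the same substrates as chalcone synthase, the entry enzyme of flavonoid and anthocyanin synthesis. In grapevine they form a large family of near-identical tandem copies on chromosomes 10 and 16, which is known to respond to wounding, infection and ultraviolet light and to rise in ripening berries.

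Summed per locus, most deposited values above 0 are multiples of a constant step in each library (97.7% to 98.5% of the sums). A value divided by this step is called a unit here. A unit is not a read, the number of reads is unknown, and no counting error could be derived. Libraries held 20368 to 23485 units over all loci, and from 62.7% to 68.9% of the detected loci had a single unit, so that a value says little beyond whether its locus was found. A locus is called detected at 0.5 units or more. In whole berries, fewer cells of a type and less RNA per cell cannot be told apart.

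The 11 loci lie within 90614 bases of chromosome 10, from 14216111 to 14306724 (genome build not given in the sources used here). VIT_210s0042g00840 (14216111 to 14217284), VIT_210s0042g00850 (14217285 to 14217506) and VIT_210s0042g00860 (14217507 to 14217694) follow each other with 0 bases between them, and the last 2 have transcripts of only 222 and 188 bases. VIT_210s0042g00870 (14246930 to 14248745) stands alone, with a transcript of 1305 bases. VIT_210s0042g00880 (14264037 to 14264349, a transcript of 238 bases) lies 251 bases before VIT_210s0042g00890 (14264601 to 14265706, 1106 bases). VIT_210s0042g00910 (14284185 to 14285736) has a transcript of 1167 bases. VIT_210s0042g00920 (1212 bases) and VIT_210s0042g00930 (1350 bases) share the interval from 14298956 to 14306724 in the files. The 1 other locus between the first and the last member, VIT_210s0042g00900 (14272096 to 14274850), was listed at 0 in all 26 libraries.

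**Figure D1:**
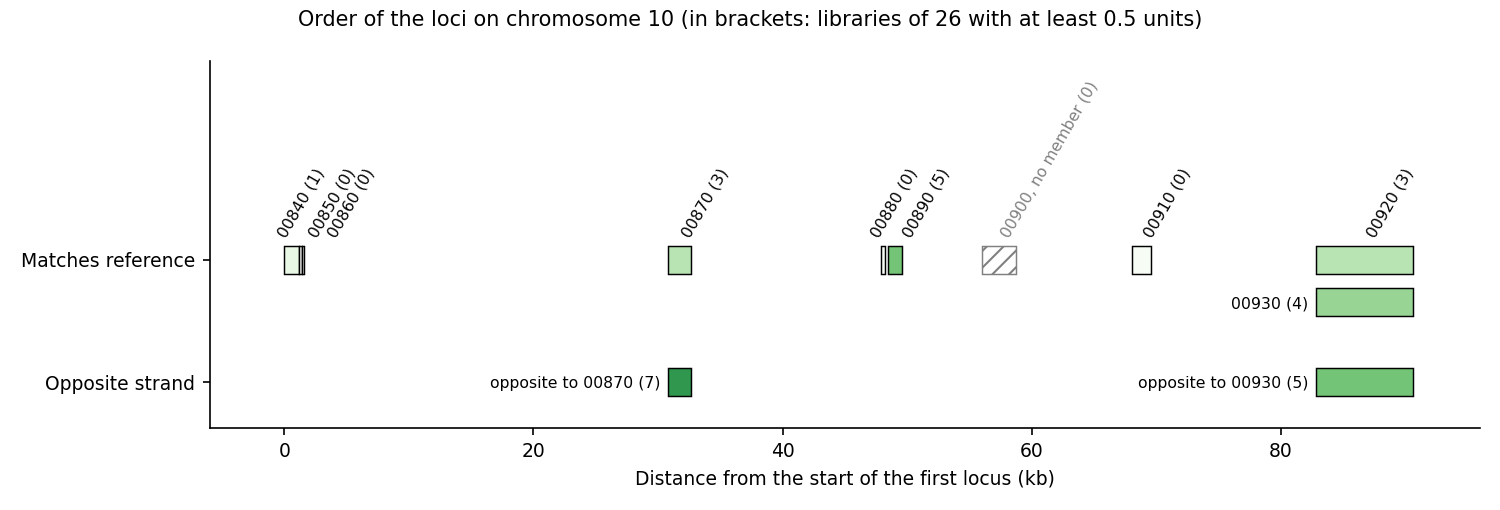
Position of the loci in kb from the start of the first, with loci that match the reference above and those on the opposite strand below; a darker green stands for more libraries. Of the 9 loci that match the reference, 4 were listed at 0 in all 26 libraries, and the opposite-strand locus of VIT_210s0042g00870 was detected in the most, 7.

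Few values of the chromosome 10 group reached 0.5 units in these berries, 9.79% of all its values against 43.98% over all loci. Of the 9 loci that match the reference, 5 were detected in at least 1 library and 4 (VIT_210s0042g00850, VIT_210s0042g00860, VIT_210s0042g00880 and VIT_210s0042g00910) were listed at 0 in all 26. The 5 are 55.6% of the 9, near the 65.4% of all loci that were detected in at least 1 library. No locus exceeded 2 units in any library, against 23 units for the highest locus of the data. At least 1 of the 11 loci was detected in 14 of 26 libraries, and 12 libraries had none.

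**Figure D2:**
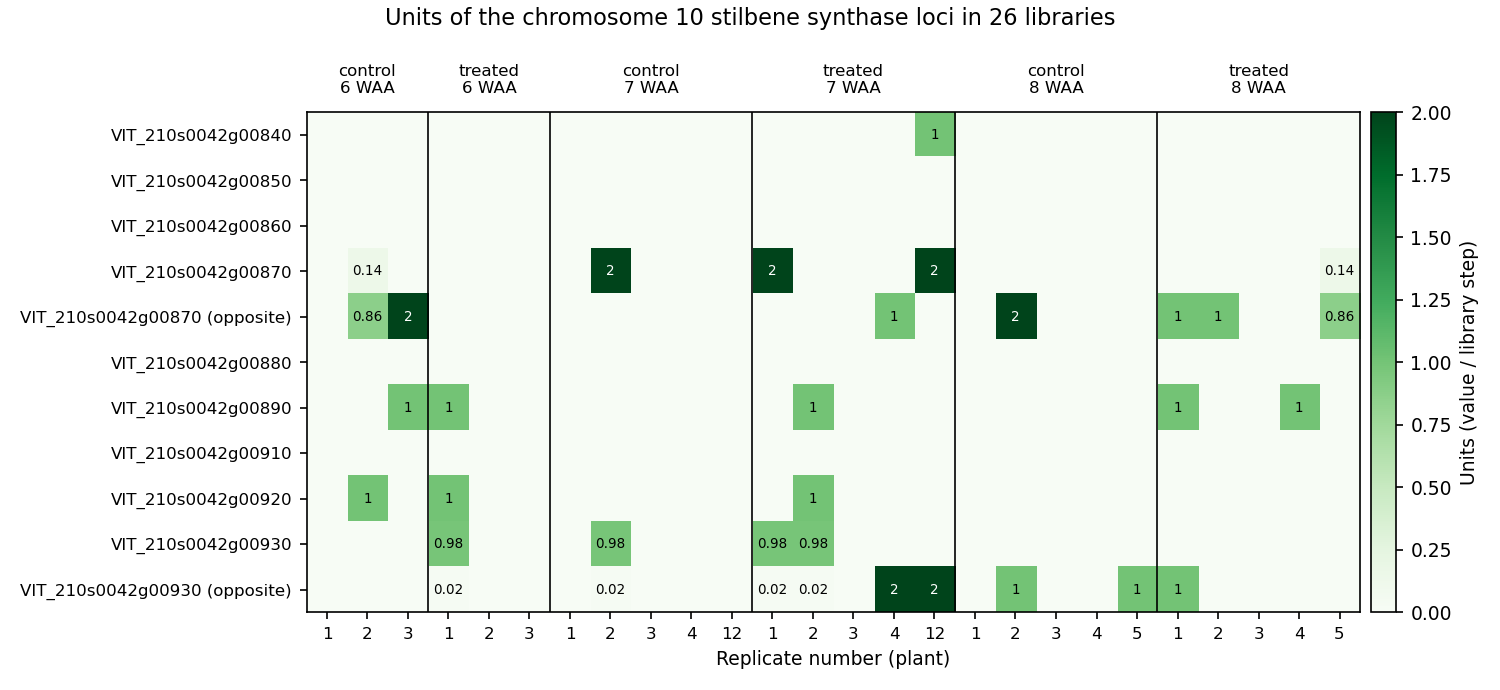
Units of each of the 11 loci (rows) in each of the 26 libraries (columns, by group and replicate number), with values above 0 printed. Of the 286 values, 28 reach 0.5 units, and the control clusters of 8 WAA hold a value only in the opposite-strand rows.

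VIT_210s0042g00890 was the most often detected of the loci that match the reference. It was listed at 1 unit in control replicate 3 and treated replicate 1 of 6 WAA, treated replicate 2 of 7 WAA and treated replicates 1 and 4 of 8 WAA, and at 0 in the remaining 21 libraries. At 7 and 8 WAA it was thus found in 3 treated clusters and in no control, but the groups overlapped at 0. VIT_210s0042g00920 was listed at 1 unit in control replicate 2 and treated replicate 1 of 6 WAA and in treated replicate 2 of 7 WAA, and at 0 in the other 23 libraries, all those of 8 WAA among them. VIT_210s0042g00840 was listed at 1 unit in treated replicate 12 of 7 WAA and at 0 in the other 25.

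Among the loci that match the reference, VIT_210s0042g00870 reached the highest value. It was listed at 2 units in control replicate 2 and in treated replicates 1 and 12 of 7 WAA, at 0.14 units in control replicate 2 of 6 WAA and treated replicate 5 of 8 WAA, and at 0 in 21 libraries. On the reference strand its detection was limited to 7 WAA among these libraries, where control and treated clusters overlapped. With its opposite strand added it was found at 6 and 8 WAA too. VIT_210s0042g00930 was listed at 0.98 units in treated replicate 1 of 6 WAA, control replicate 2 of 7 WAA and treated replicates 1 and 2 of 7 WAA, and at 0 in 22 libraries. As with VIT_210s0042g00920, no library of 8 WAA held it on the reference strand. Its opposite strand had 1 unit in control replicates 2 and 5 and treated replicate 1 of that week.

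Members were found together in single libraries. Treated replicate 1 of 6 WAA and treated replicate 2 of 7 WAA each held VIT_210s0042g00890, VIT_210s0042g00920 and VIT_210s0042g00930. In 3 more libraries 2 members were detected, VIT_210s0042g00870 with VIT_210s0042g00930 in control replicate 2 and treated replicate 1 of 7 WAA, and VIT_210s0042g00870 with VIT_210s0042g00840 in treated replicate 12 of 7 WAA. In 4 libraries 1 was detected, and in 17 none that matches the reference. These genes are near-identical copies, and the sources used here do not give how reads that fit several copies were assigned, so values of single copies are uncertain.

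Both opposite-strand loci were found more often than the genes they overlap. The locus opposite VIT_210s0042g00870 (1295 bases) had 0.86 and 2 units in control replicates 2 and 3 of 6 WAA, 2 units in control replicate 2 of 8 WAA, and 1 unit in treated replicate 4 of 7 WAA and treated replicates 1 and 2 of 8 WAA. It stood at 0.86 units in treated replicate 5 of 8 WAA and at 0 in 19 libraries. The locus opposite VIT_210s0042g00930 (longest isoform 1378 bases) was listed at 2 units in treated replicates 4 and 12 of 7 WAA, at 1 unit in control replicates 2 and 5 and treated replicate 1 of 8 WAA, at 0.02 units in 4 libraries and at 0 in 16. In control replicate 2 of 6 WAA its deposited value was 0.0014.

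The 2 strands of a gene were never both detected in 1 library. VIT_210s0042g00870 was detected in 3 libraries and its opposite strand in 7 others, and VIT_210s0042g00930 in 4 and its opposite strand in 5 others. Units were split between the strands in 2 libraries for the first and in 4 for the second (as 0.14 and 0.86, or 0.98 and 0.02), and the sum over both strands was whole, within 0.01 of a unit, in all 26 libraries for each gene. Whether the libraries or their counting kept strand is not given, so units of a gene and of its opposite strand cannot be told apart. Counted together, VIT_210s0042g00870 was detected in 10 libraries and VIT_210s0042g00930 in 9.

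Read against loci of the same length, members were found in few libraries each, though most of the long ones were found at least once. The 5 loci with transcripts of 1001 to 1400 bases gave 11.54% of values at 0.5 units or more, against 38.11% over all 3888 loci of that length, yet 4 of the 5 were detected in at least 1 library, where 63.2% of all such loci were. The 1 member of 701 to 1000 bases gave 3.85% of values against 23.58%, and it too was detected once, as 50.7% of its class were at least once. The 3 members of up to 300 bases gave 0%, where the background was itself 1.96%, so their zeros say little. These shares were not tested, since members of 1 family are not independent draws.

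**Figure D3:**
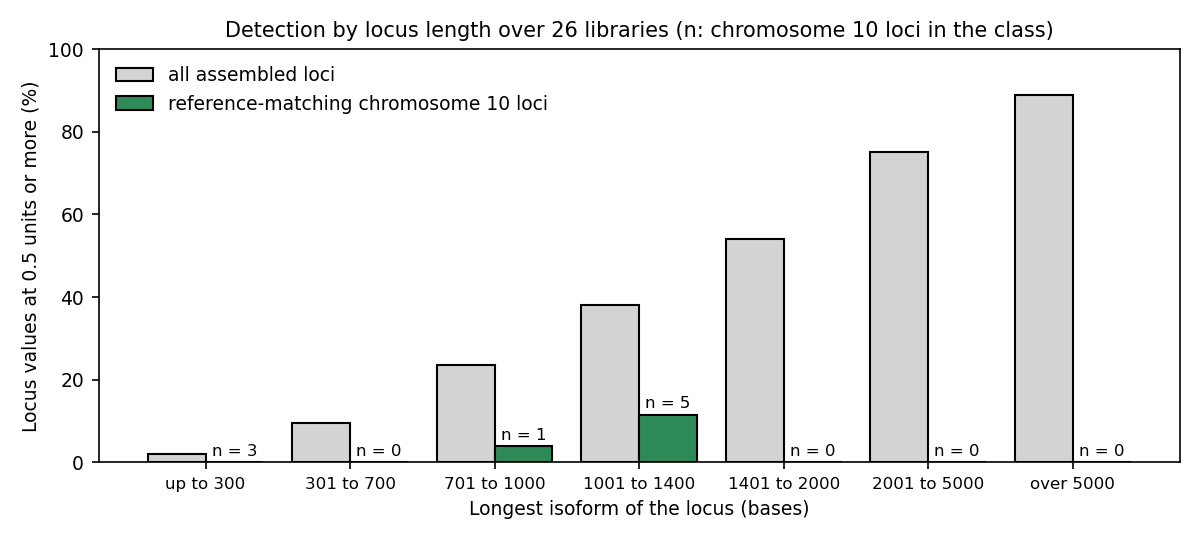
Share of locus values at 0.5 units or more over 26 libraries, by length of the longest isoform, for all assembled loci (grey) and for the 9 chromosome 10 loci that match the reference (green, with their number in each class). Detection rises with length, and the green bars at 701 to 1000 and 1001 to 1400 bases, 3.85% and 11.54%, stand below the grey ones.

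The comparison of treated with control clusters asked whether 24 h of ethylene receptor block changed these genes. At 7 WAA the units summed over the 11 loci were 0, 3, 0, 0 and 0 in control replicates 1, 2, 3, 4 and 12. Their treated counterparts, in the same order, had 3, 3, 0, 3 and 5. The means were 0.6 ± 1.34 and 2.8 ± 1.79 units (SD, n = 5), a difference of 2.2 ± 2.17 units, with 3 plants higher, 0 lower and 2 equal. The groups overlapped. The sum gets no test, because the genes were chosen with earlier results of these data known.

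At 6 WAA the sums were 0, 2 and 3 units in the controls and, plant by plant, 3, 0 and 0 after treatment, a difference of -0.67 ± 3.21 units (SD, n = 3). At 8 WAA they were 0, 3, 0, 0 and 1 units for control and 3, 1, 0, 1 and 1 for treated berries, a difference of 0.4 ± 1.82 units (SD, n = 5). Both differences were smaller than their spread between plants, and the difference at 7 WAA was about as large as its own. Treated libraries also held more units over all loci, by 494.0 ± 584.7 at 6 WAA, 828.6 ± 655.4 at 7 WAA (5 of 5 plants higher) and 850.8 ± 1068.4 at 8 WAA. With units scaled to equal library totals, the difference at 7 WAA was 2.1 units.

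**Figure D4:**
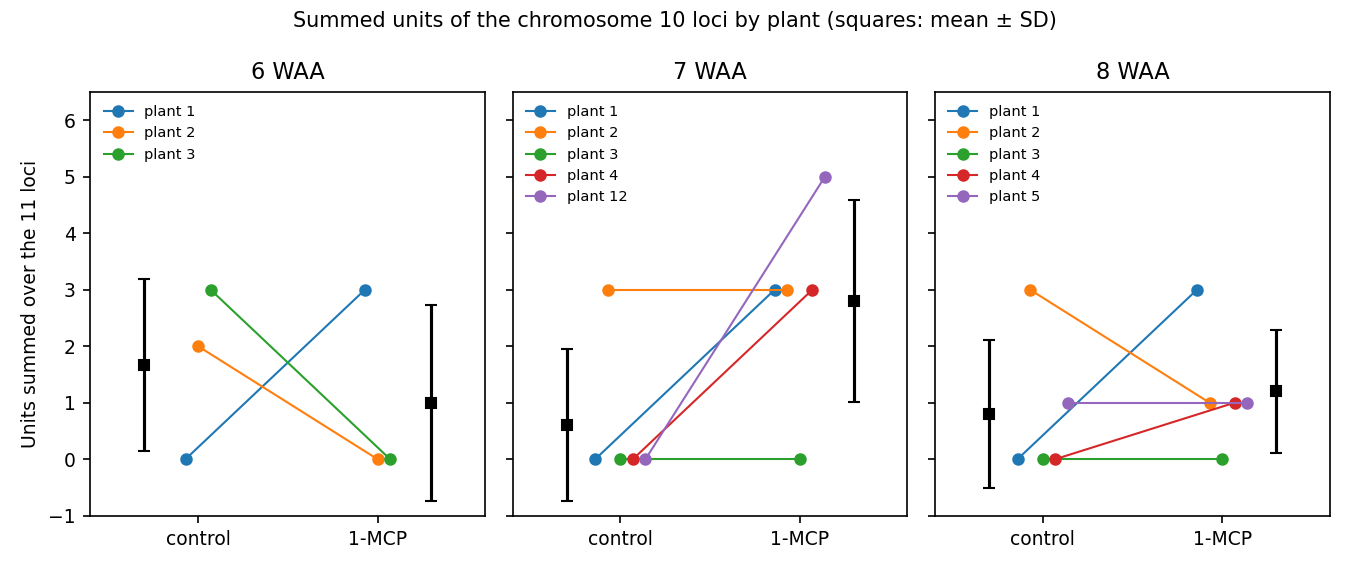
Units summed over the 11 loci in the control and the 1-MCP-treated cluster of each plant (points joined by a line, slightly offset), with squares and bars for mean ± SD of the group. Numbers name plants within a week only; at 7 WAA 3 plants go from 0 to 3 or 5 units and 2 stay level, while at 6 and 8 WAA lines go both ways.

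No member passed the test for 1-MCP at any week. The test was limma on log2(value + 1) with a block for plants and adjustment over all loci, and only 6 of the 11 loci had the 3 libraries with a value of at least 1 that it requires. The loci past the threshold made up 0.0430% of 18622 tested at 6 WAA, 0.00537% at 7 WAA and 0% at 8 WAA, so 0 of 6 is near the background. Over all 12 comparisons, 3 of 48 tests of members had an unadjusted p under 0.05 (limma). Over all loci, 5.17% of the tests of 1-MCP effects and 7.08% of those between weeks did, so 3 of 48 is near the background. All 3 concerned the locus opposite VIT_210s0042g00870 and rest on the plants of 6 WAA.

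That locus stood at 0, 0.86 and 2 units in the 3 controls of 6 WAA and at 0 in the 3 treated clusters, so the groups overlapped at 0. The log2 change was -0.84 ± 0.35 (SE, limma, adjusted p = 0.723). Summed with the gene it overlaps, VIT_210s0042g00870 had 0, 1 and 2 units in those controls and 0 after treatment, which is -0.88 ± 0.58 on the log2 scale (SE, limma, adjusted p = 0.962).

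At 7 WAA all 6 tested loci were higher in treated clusters by over 0.05 on the log2 scale. Their changes ran from 0.20 to 0.65, with a median of 0.20 against -0.01 over all tested loci, of which 6852 were higher and 5930 lower by over 0.05. A member at 0 in most libraries passes the filter only through the groups where it was found, so this count describes the 6 loci and not all 11. The largest change, at the locus opposite VIT_210s0042g00930, was 0.65 ± 0.33 (SE, limma, adjusted p = 0.867). Summed over both strands, VIT_210s0042g00930 had 0, 1, 0, 0 and 0 units without 1-MCP and 1, 1, 0, 2 and 2 with it, 0.85 ± 0.34 on the log2 scale (SE, limma, adjusted p = 0.785). At 8 WAA VIT_210s0042g00890 had no unit in the 5 controls and 1, 0, 0, 1 and 0 units after 1-MCP, 0.41 ± 0.28 (SE, limma, adjusted p = 1). The 1-MCP effect did not pass a test of difference between weeks at any member. The smallest adjusted p was 0.921 between 6 and 7 WAA, 0.984 between 7 and 8 WAA and 0.978 between 6 and 8 WAA (limma), where 0.0376%, 0% and 0.0376% of all tested loci passed.

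The comparison of weeks asked how the group behaved around the onset of ripening. In control clusters the sum over the 11 loci was 1.67 ± 1.53 units at 6 WAA (n = 3), 0.6 ± 1.34 at 7 WAA and 0.8 ± 1.3 at 8 WAA (SD, n = 5), differences smaller than the spread. The loci that match the reference were detected in 2 of 3 controls at 6 WAA, 1 of 5 at 7 WAA and 0 of 5 at 8 WAA, and the 3 values detected at 8 WAA were all on the opposite strand. No member reached the filter among the 13 control libraries, so 0 of 0 passed. Without the filter 6 loci could be tested and 0 passed (limma, smallest adjusted p = 0.656). The background was 0.169% of 17172 tested loci from 6 to 7 WAA, 0.594% from 7 to 8 WAA and 1.19% from 6 to 8 WAA.

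In treated clusters the sum was 1.0 ± 1.73 units at 6 WAA (n = 3), 2.8 ± 1.79 at 7 WAA and 1.2 ± 1.1 at 8 WAA (SD, n = 5). At 7 WAA 4 of 5 libraries held at least 1 of the 11 loci and at 8 WAA again 4 of 5, while at 6 WAA it was 1 of 3. The loci that match the reference gave 15.56% of values detected at 7 WAA and 4.44% at 8 WAA. Opposite-strand loci gave 30.0% (3 of 10 values) and 40.0% (4 of 10), while their summed units averaged 1.01 and 0.77. All loci of the data gave 44.85% and 43.33%. Of the 4 loci tested among treated libraries, 0 passed from 6 to 7, 7 to 8 or 6 to 8 WAA (limma, smallest adjusted p = 1, 0.838 and 0.726), against 0.145%, 0.337% and 0.477% of 17186 loci. From 7 to 8 WAA, 2 of the 4 loci rose by over 0.05 on the log2 scale and 2 fell. VIT_210s0042g00890 differed by 0.20 ± 0.32 and the locus opposite VIT_210s0042g00870 by 0.39 ± 0.28 (SE, limma, adjusted p = 0.918 and 0.838). VIT_210s0042g00930 had 0.98, 0.98, 0, 0 and 0 units at 7 WAA and 0 in all 5 at 8 WAA, -0.40 ± 0.27 on the log2 scale (SE, limma, adjusted p = 0.838). With its opposite strand added it had 1, 1, 0, 2 and 2 units at 7 WAA and 1, 0, 0, 0 and 0 at 8 WAA, -0.85 ± 0.35 on the log2 scale (SE, limma, adjusted p = 0.584), and the weeks overlapped either way.

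The chromosome 16 stilbene synthase region, which holds most of the family, was detected far more widely. Its 42 assembled loci, taken by identifier range, have a median longest isoform of 1522.5 bases against 1167 for the 11 loci of chromosome 10. They gave 40.93% of values detected against 9.79% on chromosome 10. In controls the chromosome 16 sum was 10 ± 7.21, 11 ± 12.86 and 27.0 ± 6.82 units at 6, 7 and 8 WAA, and in treated clusters it was 17.33 ± 7.64, 30.0 ± 16.02 and 29.0 ± 8.19 (SD, n = 3, 5 and 5). In controls at 8 WAA 52.38% of chromosome 16 values were detected, while on chromosome 10 it was 5.45%. The treated cluster of a plant had the higher chromosome 16 sum in 10 of 13 plants and the higher chromosome 10 sum in 6 of 13, with 4 plants equal on chromosome 10. Over all loci, the treated cluster had the higher sum in 3 of 3 plants at 6 WAA. The same held for 5 of 5 plants at 7 WAA and 4 of 5 at 8 WAA. These differences between the regions were not tested.

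Libraries with more chromosome 16 units tended to hold more chromosome 10 units. The 2 sums had Pearson's r = 0.60 and Spearman's rho = 0.67 over 26 libraries, and r = 0.56 without the 2 libraries farthest from the median on chromosome 16. Among the 13 controls r was 0.45 and rho 0.50, and among the 13 treated clusters r was 0.65 and rho 0.72. The correlations are given as a description, with no p: the points share plants and groups, the chromosome 10 sums take few values, and reads of near-identical copies could fall on either region. The part of such reads in this relation was not tested.

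**Figure D5:**
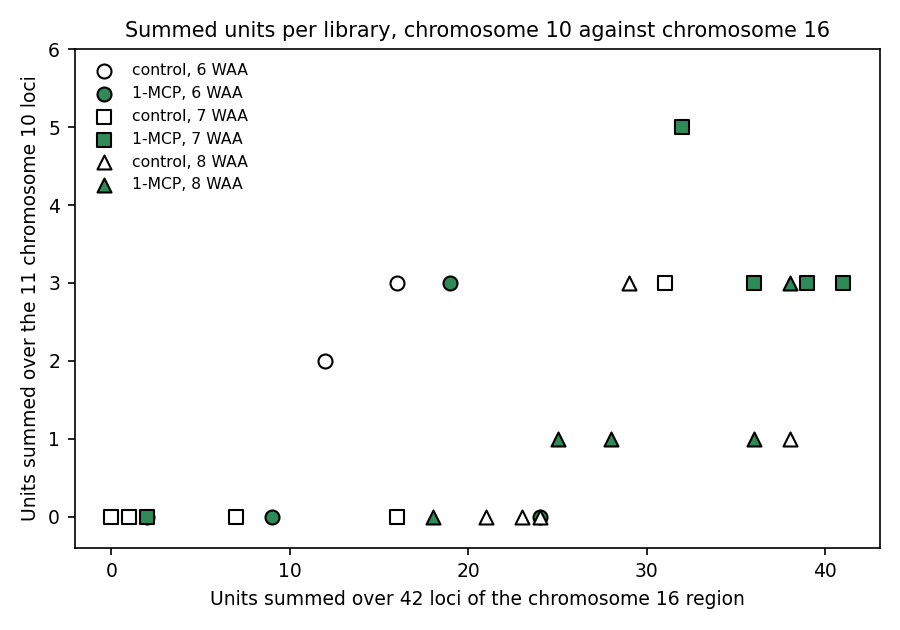
Units summed over the 11 chromosome 10 loci (vertical) against those over 42 loci of the chromosome 16 region (horizontal) in each of the 26 libraries, open for control and filled for 1-MCP, with a shape for each week (points overlap at 2 and at 24 units of chromosome 16). Control replicate 3 of 7 WAA had 0 units of both, and treated replicate 2 of 7 WAA had 41 units of chromosome 16 and 3 of chromosome 10.

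The search for loci most like the group compared its sum, as log2(units + 1), with 18616 other loci over 26 libraries. Of the 5 with the highest Pearson's r, 3 were of the chromosome 16 stilbene synthase region and 1 of the phenylalanine ammonia-lyase list. They were VIT_216s0100g00850 (r = 0.78, chromosome 16, 16346347 to 16351468, detected in 11 libraries), VIT_216s0100g00940 (r = 0.77, 16411708 to 16413390, 11 libraries) and VIT_216s0100g01020 (r = 0.73, 16476721 to 16509557, 12 libraries). The fourth was locus XLOC_011595 of chromosome 16, which carries 4 identifiers from VIT_216s0039g01100 to VIT_216s0039g01320 (r = 0.75). The interval listed for it, 598332 to 849678, is also the one listed for locus XLOC_011597 of the phenylalanine ammonia-lyase list. The last was VIT_214s0060g02740 (r = 0.71, chromosome 14, 2507194 to 2560018), and all 5 stood at 2 units or less in every library.

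The other steps of the pathway were read from lists of identifiers recalled from the grapevine literature, which the files do not annotate. Upstream are phenylalanine ammonia-lyase, which opens the phenylpropanoid pathway, cinnamate 4-hydroxylase and 4-coumarate-CoA ligase. Chalcone synthase competes for substrate, and MYB14 and MYB15 activate stilbene synthase promoters. In the 6 comparisons of 1-MCP effects, 0 of the tested loci passed on any of the 6 lists (33 loci for the chromosome 16 region, 12, 3, 4, 3 and 2 for the others), and 34 of 342 tests had an unadjusted p under 0.05 (limma), which is 9.94% against 5.17% over all loci. The loci of a list are not independent of each other. Between weeks, 1 locus of the chromosome 16 region and 1 of the cinnamate 4-hydroxylase list passed, both higher in controls of 8 WAA, and 0 of the other lists. These 2 calls are 0.641% of 312 tests, near the 0.486% over all loci in the same comparisons, and 29 of the 312 (9.29%, against 7.08% over all loci) had an unadjusted p under 0.05.

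VIT_216s0100g01130 of the chromosome 16 region (16618991 to 16624707) was listed at 0 in the 3 controls of 6 WAA, at 0, 2, 0, 0 and 1 units at 7 WAA and at 2 units in all 5 at 8 WAA. From 6 to 8 WAA in controls it rose by 1.62 ± 0.33 on the log2 scale (SE, limma, adjusted p = 0.0472), and the groups did not overlap. Treated clusters had 2, 1 and 2 units at 6 WAA and 2, 2, 1, 2 and 1 at 8 WAA, so they showed no such rise. The call was lost with the replicate number as a block (0.334), with a pseudocount of 0.1 (0.0714), without the filter (0.0544), with a stricter one (0.0598), with whole units (0.055) and without any 1 control library other than replicate 2 of 7 WAA (0.0519 to 0.154). VIT_211s0065g00350 of the cinnamate 4-hydroxylase list (14061061 to 14092260 of chromosome 11) had values of 0, 0, 0.71, 0 and 1 units in controls of 7 WAA and 1.63, 1.8, 1.48, 1.78 and 1.8 units at 8 WAA. The groups did not overlap, and it rose by 1.1 ± 0.20 on the log2 scale (SE, limma, adjusted p = 0.0323). It had stood at 1 unit in the 3 controls of 6 WAA. In treated clusters it had 1 unit in all 5 at 7 WAA and 1.8, 1.8, 1, 1 and 1 units at 8 WAA. Its call was lost with the replicate block (0.0991), a pseudocount of 0.1 (0.12), whole units (0.0853) and without any 1 control library other than replicates 3 and 12 of 7 WAA (0.0573 to 0.0911).

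On the 4 lists with no call, the locus with the smallest p is given by its change alone. Locus XLOC_011597 of the phenylalanine ammonia-lyase list (VIT_216s0039g01350 and VIT_216s0039g01390) differed by 0.87 ± 0.25 on the log2 scale from 6 to 7 WAA in controls (SE, limma, adjusted p = 0.341). VIT_216s0039g02040 of the 4-coumarate-CoA ligase list differed by -0.36 ± 0.13 from 7 to 8 WAA in controls (adjusted p = 0.472). VIT_207s0005g03340 of the MYB list differed by 0.44 ± 0.28 from 7 to 8 WAA in treated clusters (adjusted p = 0.838), and VIT_214s0068g00920 of the chalcone synthase list by -0.34 ± 0.33 with 1-MCP at 6 WAA (adjusted p = 1).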

How the data were processed

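Berry RNA was sequenced in 26 libraries. For every library the authors deposited a signal per isoform (90542 assembled isoforms), with isoform lengths in bases in a separate file. The signal is never negative and is not a read count. The submitters' processing notes name Bowtie2 2.2.3. The program behind the values, the build, the annotation and the strand setting are unstated in the sources used here. Each library's values were divided by its step, the commonest value above 0.5 (1.02702 in 18 libraries, at most 1.05477), and isoforms were summed per locus; 97.7% to 98.5% of locus sums above 0 were within 0.01 of a whole unit. Starts are printed counted from 1, because the files count from 0 (no isoform is longer than its end minus its start).

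Groups came from source names and replicate numbers from titles. Loci reaching a value of 1 in 3 or more fitted libraries were tested with limma 3.58.1 in R 4.3.3 on log2(value + 1), which understates changes of low loci, with Benjamini-Hochberg adjustment over all tested loci at 0.05. For 1-MCP all 26 libraries were fitted with a block for each of 13 combinations of week and replicate number, since the series design text says that both clusters came from 1 plant. Same-plant clusters deviated from their group means with correlations of -0.089 to 0.092. Weeks were compared in the 13 controls or the 13 treated clusters. The members and lists, and the rule for named loci (all members, loci between them, the 5 most alike, list loci past the threshold or with the smallest p), were chosen with earlier results of these data known. Alternatives were the pseudocount, the filter, whole or scaled units, the block, the libraries fitted, each replicate left out and, chosen after seeing the data, both strands summed or the reference strand alone.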

Additional observations from a re-analysis of the deposited data

Results flagged for a closer look

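Dixon's criterion was applied in groups of 5 clusters, to the 18 sets of values that hold a unit. In 9 of the 18, a single cluster stood apart from the other 4. Chance meets this criterion in about 1 of 20 groups of normally distributed values. In values that are mostly 0, a single cluster with a unit meets it. Control replicate 2 of 7 WAA held all 3 units of its group, of which 2 were VIT_210s0042g00870 and 0.98 were VIT_210s0042g00930. Control replicate 2 of 8 WAA held 2 units opposite VIT_210s0042g00870. Of the treated clusters of 7 WAA, replicate 12 alone held VIT_210s0042g00840 at 1 unit, replicate 4 alone the locus opposite VIT_210s0042g00870 at 1 unit, and replicate 2 alone VIT_210s0042g00890 and VIT_210s0042g00920 at 1 unit each. Treated replicate 1 of 8 WAA alone held the locus opposite VIT_210s0042g00930 at 1 unit.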

How the results depend on the processing

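No member passed the threshold under any of the 50 settings run with limma, which gave 985 tests of members over the 12 comparisons, with the plant or replicate block or without it (0 members called either way). In controls no member reached the main filter, with or without the replicate block, so no call was possible in those fits. The smallest adjusted p was 0.403, for the locus opposite VIT_210s0042g00870 with 1-MCP at 6 WAA without replicate 1 of that week, where the main value was 0.723. Summed units at 7 WAA differed between treated and control by 1.5 to 2.75 when each plant was left out and by 1.2 on the reference strand alone. No plant was lower after treatment at 7 WAA, so leaving out a plant could not turn the sign. At 6 WAA the difference ran from -2.5 to 0.5 without single plants and at 8 WAA from -0.25 to 1.0, so 1 plant sets its direction in both weeks. On the reference strand alone the difference at 6 WAA turned from -0.67 to 0.28, and that in controls from 6 to 7 WAA shrank from -1.07 to -0.12. The differences between weeks in the summed units kept their sign without single libraries except in controls from 7 to 8 WAA, which ran from -0.35 to 0.8 and was -0.6 on the reference strand. The number of loci called over the whole table moved more: with 1-MCP at 6 WAA it was 8, and 5 to 140 under the alternatives; in controls from 6 to 8 WAA it was 205, and 90 to 221. Read depth is unknown, and most detected loci stand at 1 unit, so the values resolve little below 1 unit.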

Other observations

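Of the 6 loci that flank the group within 100000 bases, 4 were detected in at least 1 library, near the 65.4% of all loci. VIT_210s0042g00820 was detected in 22 libraries and VIT_210s0042g00830 in 14. VIT_210s0042g00830 had means of 2.0, 2.2 and 0.2 units in controls of 6, 7 and 8 WAA and 2.33, 1.2 and 0 in treated clusters, and its change from 6 to 8 WAA in treated clusters was -1.75 ± 0.40 on the log2 scale (SE, limma, adjusted p = 0.0998). Locus XLOC_002656, which carries no reference identifier and lies just before the group (14180994 to 14212352), had no unit in the 6 libraries of 6 WAA, and 1.2 units on average in controls of 7 WAA and 0.2 at 8 WAA, -0.94 ± 0.20 on the log2 scale (SE, limma, adjusted p = 0.0764). None of the flanking loci passed the threshold in any of the 12 comparisons. VIT_210s0042g00835 and VIT_210s0042g00940 were listed at 0 in all 26 libraries.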
